A study of Mus musculus with 8 samples.

Results

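The enzymes and regulators that make cholesterol and fatty acids were examined in the hypothalamus of mice whose neural cells lack functional peroxisomes. The set was chosen by name and not by its values, though with earlier results of these data known. It holds 33 genes: 8 for the steps from acetyl-CoA to squalene, 10 for those from squalene to cholesterol, 7 for the SREBP system with sterol transfer and removal, and 8 for fatty acid synthesis and desaturation. Of these, 32 were measured among 18194 genes in all. Acat2 had no probe set of its own. Hypothalamus RNA came from 4 Nestin-Pex5-/- and 4 wild type mice, all 10 weeks of age and on a Swiss Webster background, and was hybridised to whole-genome Affymetrix mouse arrays, 1 per mouse. The knockout mice carry a floxed Pex5 gene, which encodes the import receptor for peroxisomal matrix proteins, and a Cre recombinase driven by Nestin. Recombination therefore takes place in the descendants of neural progenitors (neurons, astrocytes and oligodendrocytes), while microglia and vessels come from other lineages. The wild type mice were untreated, and the labels do not say whether they carried Cre or the floxed alleles. The 4 mice of a genotype are wild type replicates 1 to 4 and Nestin-Pex5-/- replicates 7 to 10.

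The brain makes nearly all of its own cholesterol, because lipoproteins of the blood do not cross the blood-brain barrier, and oligodendrocytes need large amounts for myelin. Acetyl-CoA is condensed to mevalonate, mevalonate is turned into isoprenes and then squalene, and squalene is closed into a ring and trimmed to cholesterol. Most enzymes of this route, and those of fatty acid synthesis, are under the transcription factors SREBP1 and SREBP2 (genes Srebf1 and Srebf2). Scap carries these factors to the Golgi for cleavage when sterols are scarce, and Insig1 and Insig2 hold them back when sterols are plentiful. Peroxisomes shorten very long chain fatty acids and start ether lipid synthesis. A place of some early sterol enzymes in peroxisomes has been proposed and disputed.

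Promoter letters that SREBP and its partners are known to bind were looked up for the members. RefSeq (GRCm38.p6) gave 35 promoter windows of 250 bases before a transcription start for 26 of the 33 genes. Hmgcs1 and Fasn are shown, Hmgcs1 because it was the only member with a sterol regulatory element match and Fasn because it was the only member past the threshold below. Hmgcs1 lies on chromosome 13 on the plus strand and its window is chr13:119690101-119690350. Fasn lies on chromosome 11 on the minus strand and its window is chr11:120824548-120824797. Both read 5′ to 3′ along the gene. Capitals mark matches to the sterol regulatory element TCACNCCAC or to the CCAAT box on either strand, the latter read as ATTGG on the opposite one.
Hmgcs1: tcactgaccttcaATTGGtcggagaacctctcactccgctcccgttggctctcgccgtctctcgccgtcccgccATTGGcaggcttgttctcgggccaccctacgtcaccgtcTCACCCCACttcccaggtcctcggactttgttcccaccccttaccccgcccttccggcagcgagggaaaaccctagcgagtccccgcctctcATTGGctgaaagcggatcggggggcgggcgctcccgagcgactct
Fasn: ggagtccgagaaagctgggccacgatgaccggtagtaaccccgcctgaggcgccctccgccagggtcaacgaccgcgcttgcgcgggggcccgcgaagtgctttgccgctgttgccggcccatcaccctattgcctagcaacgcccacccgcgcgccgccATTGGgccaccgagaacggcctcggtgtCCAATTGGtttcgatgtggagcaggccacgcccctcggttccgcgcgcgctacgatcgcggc
In Hmgcs1 the sterol regulatory element match spanned -137 to -129 from the start, with CCAAT boxes at -237, -176 and -45. In Fasn the CCAAT boxes began at -90, -62 and -59, the last pair overlapping each other. The sterol regulatory element was matched in 1 of the 35 member windows, against 1.05% of all 32851 windows of RefSeq genes. The CCAAT box was matched in 22 member windows (62.9%) against 33.8% of all windows. The GC box GGGCGG was matched in 26 member windows (74.3%) against 32.7% of all, or 48.3% of the windows of genes on the array. The E-box CACGTG was matched in 5 member windows (14.3%) against 6.02% of all. These are matches of letters in a short window, counted on both strands.

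The authors deposited log2 values made with RMA, which corrects background, brings the arrays to one distribution and combines a probe set's probes into 1 value. All levels below are on this log2 scale, so a difference of 1 is a doubling, and a level is compared only with the same gene in other arrays. Where a gene had several probe sets, the brightest on average was taken. Genotypes were compared with limma, with Benjamini-Hochberg adjustment across the 18194 genes and a threshold of 0.05 on the adjusted p. A difference is Nestin-Pex5-/- minus wild type, and a fold is Nestin-Pex5-/- over wild type. With 4 arrays against 4, the exact two-sided permutation test of a single gene cannot go below p = 0.029.

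Pex5 itself did not check the genotypes. Its level was 8.62 to 8.70 in the wild type arrays and 8.58 to 8.76 in the Nestin-Pex5-/- arrays, with a difference of 0.01 (standard error 0.056, adjusted p = 0.946 by limma), and whether its probe set lies in the deleted part is not known. Over all genes, 724 were higher (3.98%) and 144 lower (0.791%) in Nestin-Pex5-/- hypothalamus. A separate axis, the second principal component with 18.7% of the variance, set wild type replicate 4 apart from the other 7 arrays. That array also had the lowest mean of the choroid plexus and ependyma markers (7.84, where wild type replicates 1 to 3 had 9.02 to 9.39 and the Nestin-Pex5-/- arrays 8.41 to 8.88). Of this list, Ttr, Kl, Clic6, Folr1 and Kcnj13 were lower in it than in the other 7 arrays. Foxj1, Tmem212 and Ccdc153 were not, and lay within the range of wild type replicates 1 to 3. The neuropeptides that define the hypothalamus were present in all arrays, with Pmch at 12.18 to 12.83 and Hcrt at 10.05 to 11.08. The mean of the hypothalamus markers (13 of 14 measured) was 9.56, 9.56, 9.20 and 9.52 in wild type and 9.61, 9.28, 9.08 and 9.03 in Nestin-Pex5-/- arrays, so wild type replicate 3 and Nestin-Pex5-/- replicates 9 and 10 were low in their groups. Results below are given with and without wild type replicate 4 where it matters.

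Across the whole set the genotypes differed little. Of the 32 measured members, 1 was lower in Nestin-Pex5-/- hypothalamus (Fasn) and 0 were higher by limma, where the background over all genes was 0.791% lower, 3.98% higher and 4.77% in either direction. At an unadjusted p under 0.05 the members gave 4 higher (Hmgcs1, Hsd17b7, Fads2 and Me1; background 8.85%) and 3 lower (Srebf2, Acaca and Fasn; background 8.01%). Arrays of opposite genotype showed no overlap for 2 members that lay higher (Fads2 and Me1; background 6.63%) and for 2 that lay lower (Srebf2 and Fasn; background 4.51%). The fitted difference was above 0 for 19 members and below 0 for 13, with a median of 0.018, beside a median of -0.033 and a share above 0 of 38.3% over all genes. With genes below the median level left out, 18 of 31 members were above 0, beside 45.3% of the genes kept. The 95% intervals of all 32 members lay between -0.55 and 0.58, that is between 0.685-fold and 1.49-fold. Since the tissue was taken whole, a difference in the number of cells that express a gene and a difference in RNA per cell cannot be told apart.

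**Figure D1:**
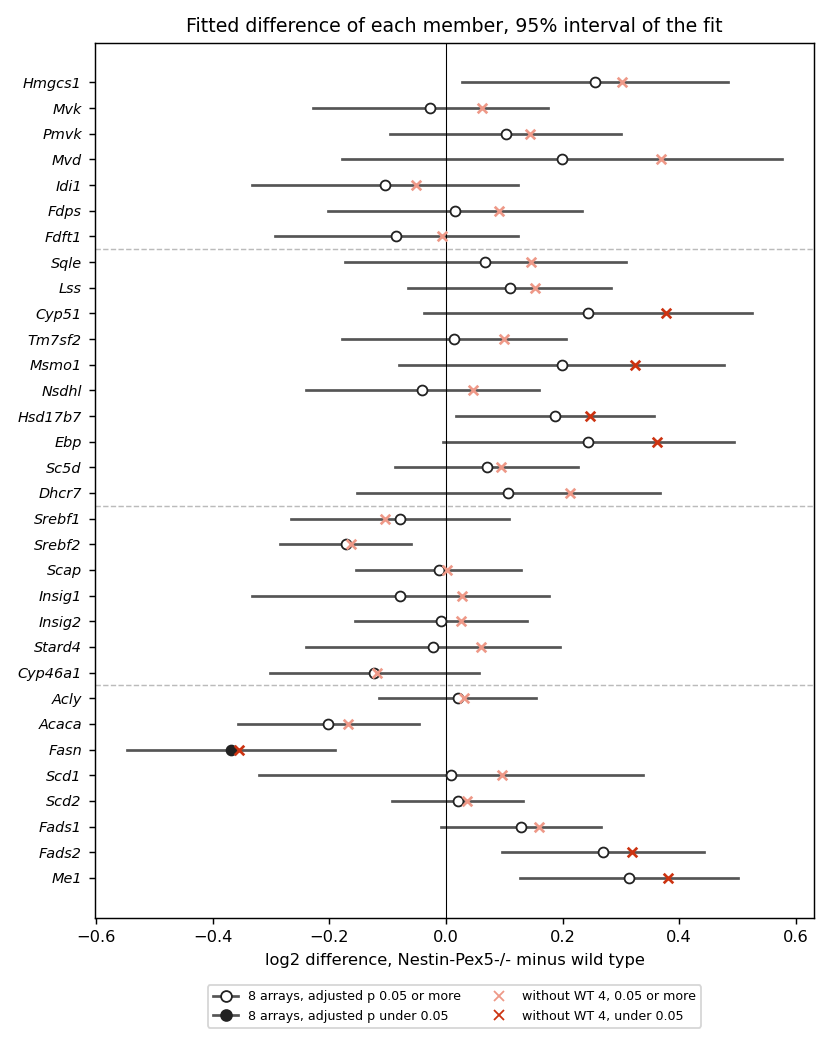
Log2 difference between genotypes (x axis) for each of the 32 measured members (y axis), with circles for the fit to 8 arrays, bars for its 95% interval, crosses for the fit without wild type replicate 4 (WT 4), and dashed lines between the 4 gene lists. The circle of Fasn alone is filled (adjusted p under 0.05), and without wild type replicate 4 Cyp51, Msmo1, Hsd17b7, Ebp, Fads2 and Me1 also pass, all to the right of 0.

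With all 8 arrays, the 3 members with the smallest adjusted p (Fasn, Me1 and Fads2) belonged to fatty acid synthesis and desaturation, and their differences ran in both directions. Without wild type replicate 4 the smallest was that of Ebp, a sterol enzyme. Fasn, the multi-domain synthase that builds palmitate, was 10.79, 10.78, 10.49 and 10.74 in the wild type arrays and 10.44, 10.34, 10.30 and 10.25 in the Nestin-Pex5-/- arrays. Every Nestin-Pex5-/- array lay below every wild type array, although wild type replicate 3 came close to them. The means were 10.70 ± 0.14 and 10.33 ± 0.080 (SD, n = 4 each), 0.775-fold in Nestin-Pex5-/- with a 95% interval of 0.685 to 0.877 (adjusted p = 0.028 by limma; exact permutation p = 0.029, the smallest possible). The call was lost, with the same direction, on omitting any one of wild type replicates 1 and 2 and Nestin-Pex5-/- replicates 8 to 10 (adjusted p up to 0.096), and when p-values were adjusted over all probe sets (0.053). Fasn is read by a single probe set.

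Acaca encodes the carboxylase that makes malonyl-CoA, the building block Fasn uses. Its level was 9.24, 9.23, 9.10 and 9.33 in wild type and 9.14, 9.02, 8.98 and 8.94 in Nestin-Pex5-/- arrays, with means of 9.22 ± 0.095 and 9.02 ± 0.088 (SD, n = 4). Wild type replicate 3 and Nestin-Pex5-/- replicate 7 overlapped. The difference of -0.20 (0.869-fold, interval 0.781 to 0.968) did not pass (adjusted p = 0.166 by limma), and its other probe set gave -0.22. Acly, which supplies acetyl-CoA from citrate, differed by 0.02 (interval 0.924-fold to 1.11-fold).

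Me1, the malic enzyme that supplies NADPH for fatty acid synthesis, lay on the other side. It was 9.87, 9.85, 9.68 and 10.07 in wild type and 10.18, 10.27, 10.10 and 10.16 in Nestin-Pex5-/- arrays, without overlap. The means of 9.86 ± 0.16 and 10.18 ± 0.069 (SD, n = 4) gave 1.24-fold (interval 1.09 to 1.41), which missed the threshold (adjusted p = 0.072 by limma; exact permutation p = 0.029). Its other probe set gave a difference of 0.39. Me1 passed without wild type replicate 4, its highest wild type array, at 1.30-fold (adjusted p = 0.011).

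The desaturases add double bonds. Fads2, the first enzyme in making polyunsaturated fatty acids from dietary precursors, was 10.70, 10.73, 10.56 and 10.86 in wild type and 11.12, 10.98, 10.91 and 10.93 in Nestin-Pex5-/- arrays. The genotypes did not overlap, but the gap between them was small. Means of 10.71 ± 0.12 and 10.98 ± 0.095 (SD, n = 4) gave 1.21-fold (interval 1.07 to 1.36; adjusted p = 0.095 by limma), and both other probe sets lay in the same direction (differences of 0.32 and 0.29). Without wild type replicate 4 it passed at 1.25-fold (adjusted p = 0.029). Fads1, the next desaturase of that route, differed by 0.13 with overlap (adjusted p = 0.330 by limma). Scd1 and Scd2 insert the double bond of oleate, and Scd2 is the main form in brain. Their differences were 0.01 (interval 0.801-fold to 1.26-fold) and 0.02 (0.938-fold to 1.10-fold). For the 8 genes of fatty acid synthesis and desaturation together, 1 was lower, 0 were higher and the median difference was 0.020 (-0.11 when scaled to Actb).

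**Figure D2:**
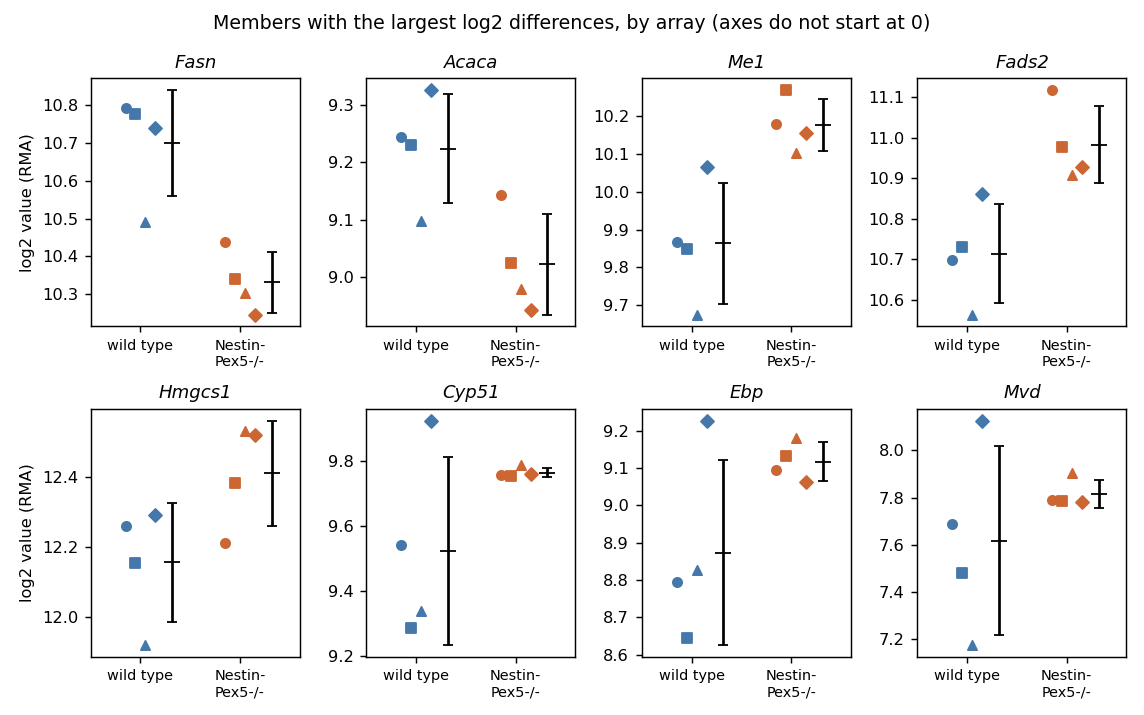
Log2 level (y axis, a separate range per gene) of the 8 members with the largest absolute differences, 1 point per array, with the mean and SD of each genotype as a bar to the right; circle, square, triangle and diamond are replicates 1 to 4 in wild type and 7 to 10 in Nestin-Pex5-/-. Fasn, Me1 and Fads2 do not overlap between genotypes, while in Cyp51, Ebp and Mvd wild type replicate 4 (diamond) lies above all Nestin-Pex5-/- arrays.

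None of the 17 measured enzymes of sterol synthesis passed the threshold by limma. At an unadjusted p under 0.05 there were 2, both higher (Hmgcs1 and Hsd17b7), where the background was 8.85% higher and 8.01% lower. No enzyme had genotypes without overlap, beside 11.1% of all genes. Of the 17 fitted differences, 13 were above 0, beside 38.3% of all genes (scaled to Actb, 6 of the 17, beside 13.6% of all genes). With genes below the median level left out, 12 of 16 enzymes were above 0, beside 45.3% of the genes kept. The intervals ran from 0.794-fold to 1.49-fold.

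In the steps to squalene (7 of 8 measured) the median difference was 0.016, and -0.11 when scaled to Actb. Hmgcs1, which makes HMG-CoA, the precursor of mevalonate, was 12.26, 12.15, 11.92 and 12.29 in wild type and 12.21, 12.38, 12.53 and 12.52 in Nestin-Pex5-/- arrays. Replicates 8 to 10 lay above all wild type arrays and replicate 7 lay among them. The means of 12.16 ± 0.17 and 12.41 ± 0.15 (SD, n = 4) gave 1.19-fold (interval 1.02 to 1.40; adjusted p = 0.237 by limma). Of its 4 other probe sets, 3 gave differences between 0.20 and 0.27 and the dimmest 0.00. Mvd, which decarboxylates mevalonate pyrophosphate to the first isoprene, was 7.69, 7.48, 7.17 and 8.13 in wild type and 7.79, 7.79, 7.90 and 7.78 in Nestin-Pex5-/- arrays. The wild type arrays spanned almost a full log2 unit, around Nestin-Pex5-/- arrays that lay close together. Means were 7.62 ± 0.40 and 7.82 ± 0.059 (SD, n = 4), 1.15-fold with an interval of 0.884 to 1.49 (adjusted p = 0.598 by limma). Without wild type replicate 4 the fold was 1.29 (adjusted p = 0.085). The kinases Mvk and Pmvk differed by -0.03 and 0.10, the isomerase Idi1 by -0.11, the prenyl transferase Fdps by 0.02 and squalene synthase, Fdft1, by -0.09.

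From squalene to cholesterol (10 of 10 measured) the median difference was 0.11 (-0.020 when scaled to Actb), and 9 of the 10 were above 0, of which 5 turned below 0 on the Actb scale. Cyp51, which removes the methyl group at the first step after lanosterol, was 9.54, 9.28, 9.34 and 9.93 in wild type, and 9.76, 9.76, 9.79 and 9.76 in Nestin-Pex5-/- arrays. The Nestin-Pex5-/- arrays lay above wild type replicates 1 to 3 and below replicate 4. The means of 9.52 ± 0.29 and 9.77 ± 0.015 (SD, n = 4) gave 1.18-fold (interval 0.974 to 1.44; adjusted p = 0.370 by limma). Ebp, the sterol isomerase, had the same order, with 8.79, 8.65, 8.83 and 9.23 in wild type against 9.09, 9.13, 9.18 and 9.06. Its means of 8.87 ± 0.25 and 9.12 ± 0.052 (SD, n = 4) also gave 1.18-fold (interval 0.996 to 1.41; adjusted p = 0.308 by limma). Msmo1, Nsdhl and Hsd17b7 together strip further methyl groups from the ring, and differed by 0.20, -0.04 and 0.19. The other probe sets of Hsd17b7 gave 0.04, 0.16 and, for the dimmest, -0.09. Squalene epoxidase, Sqle, an entry step of the ring-forming branch, was 10.55, 10.51, 10.16 and 10.72 in wild type and 10.48, 10.52, 10.63 and 10.57 in Nestin-Pex5-/- arrays, so the knockout arrays fell inside the wild type range. The cyclase Lss, the reductase Tm7sf2, the desaturase Sc5d and Dhcr7, which acts at the end of the route, differed by 0.11, 0.01, 0.07 and 0.11. The other, dimmer probe sets gave 0.27 and 0.06 for Lss, and 0.40 and 0.10 for Sc5d.

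The sterol enzymes varied more between wild type arrays than between Nestin-Pex5-/- arrays. Their median SD was 0.19 in wild type and 0.059 in Nestin-Pex5-/- hypothalamus, beside 0.12 and 0.095 over all genes. The SD was larger in wild type for 16 of the 17 (62% of all genes) and over 2 times larger for 12 of the 17 (25% of all genes). Wild type replicate 4 was the highest wild type array for 16 of the 17 (52.2% of all genes), and replicate 3 the lowest for 14 (28.4%). Both held together for 13 of the 17 (17% of all genes). The pattern was not particular to sterol synthesis. Among the 8 members of fatty acid synthesis and desaturation, replicate 4 was highest for 6 and replicate 3 lowest for 7, with both for 6. For the 19 other fatty acid synthesis genes measured, replicate 4 was highest for 16. Both held for 3 of the 7 genes of the SREBP list. All 4 Nestin-Pex5-/- arrays lay within the wild type range for 11 of the 17 (23.7% of all genes). Spread between genotypes was described here and given no test.

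**Figure D3:**
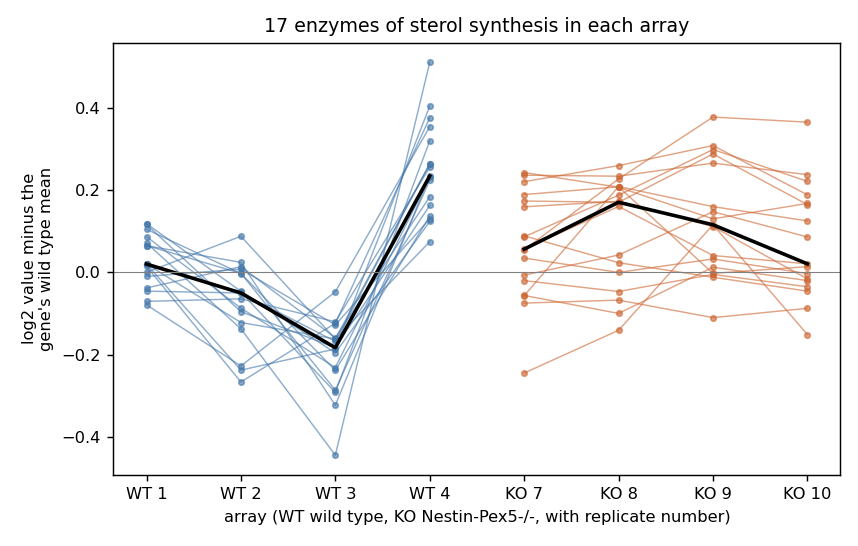
Log2 level of the 17 sterol enzymes in each array (x axis) minus the same gene's mean over the wild type arrays (y axis), 1 thin line per gene and the median in black; lines join arrays only to keep a gene together, since replicates have no order. Wild type replicate 4 lies high and replicate 3 low for nearly all enzymes, with the Nestin-Pex5-/- arrays between them for most.

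Leaving out wild type replicate 4 changed the count of members past the threshold from 0 to 6 higher (background 5.94%) and left 1 lower (background 1.82%). The 6 were Cyp51 (1.30-fold, adjusted p = 0.011 by limma), Ebp (1.29-fold, 0.0090), Msmo1 (1.25-fold, 0.045), Hsd17b7 (1.19-fold, 0.044), Fads2 and Me1. Replicate 4 was the highest wild type array for each of these 6 and for 26 of the 32 members, beside 52.2% of all genes. Leaving out the highest wild type array raises a difference by itself, so the gain in higher calls gives no independent support. Each call rests on the brightest probe set of its gene. With all arrays the probe sets of Hsd17b7 differed in size and sign, as given above. The 4 sterol enzymes among the 6 members act after squalene, where the median difference became 0.18. In the steps to squalene it became 0.091, and over all genes -0.016. Mvd (1.29-fold, adjusted p = 0.085 by limma) and Hmgcs1 (1.23-fold, 0.138) of the steps to squalene had folds of a similar size but did not pass. With any other single array left out, 0 members were higher.

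Markers of other cell types differed between the wild type arrays too, and several lists shared with the sterol enzymes the array in which they were highest. The mean of the 7 enzymes leading to squalene was 9.83, 9.67, 9.50 and 9.98 in wild type and 9.76, 9.80, 9.84 and 9.78 in Nestin-Pex5-/- arrays. That of the 10 enzymes after squalene was 9.35, 9.28, 9.19 and 9.62, then 9.46, 9.50, 9.51 and 9.46. The mean of the oligodendrocyte and myelin markers (13 of 16 measured) was 10.93, 10.70, 10.75 and 11.47 in wild type, and 11.13, 11.39, 11.63 and 11.56 in Nestin-Pex5-/- arrays. Wild type replicate 4 was thus the highest wild type array in all 3 lists, and the highest for 12 of the 13 myelin markers (52.2% of all genes). The lowest was replicate 3 for the sterol enzymes and replicate 2 for myelin. Microglia, astrocyte and oligodendrocyte precursor markers also had their highest wild type mean in replicate 4. Neuron markers, hypothalamus markers and those of choroid plexus and ependyma did not. Endothelium markers (7 of 8 measured), with means of 8.14, 8.16, 8.01 and 8.35 in wild type and 8.09, 8.17, 8.18 and 8.22 in Nestin-Pex5-/- arrays, and meninges markers (9 of 9 measured), with 8.88, 8.91, 8.66 and 9.29, then 7.99, 8.25, 9.13 and 9.07, had the same highest and lowest wild type array as the sterol enzymes. The log2 of the summed myelin marker level ran from 15.59 to 16.10 in wild type and from 15.93 to 16.23 in Nestin-Pex5-/- arrays. Of the 13 markers 0 passed the threshold with all arrays and 6 were higher without wild type replicate 4. Mbp, a main protein of compact myelin, differed by 0.13 (adjusted p = 0.267 by limma), and Mog, on the outer face of myelin, by 0.75 (adjusted p = 0.241). The part of these cell types in the levels of the sterol enzymes was not tested.

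Microglia markers separated the genotypes completely. Of the 11 measured of 12 listed, 10 were higher, and the log2 of their summed level ran from 12.76 to 13.00 in wild type and from 14.69 to 14.90 in Nestin-Pex5-/- arrays. Aif1 was 4.68-fold and Cx3cr1 3.28-fold higher. Astrocyte markers gave 3 of 12 higher (log2 sum 15.30 to 15.46, then 15.70 to 15.86), oligodendrocyte precursor markers 1 of 8 higher (12.65 to 13.07, then 13.06 to 13.31) and neuron markers 1 of 12 lower (15.88 to 15.99, then 15.85 to 15.88). Without wild type replicate 4 these counts became 4 of 12 astrocyte and 4 of 8 precursor markers higher, and 1 neuron marker higher and 3 lower (Gad1, Gad2 and Slc32a1, of inhibitory neurons). None of these lists had a defining marker at 0, since RMA values do not reach it. Their part in the results for the members was not tested.

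**Figure D4:**
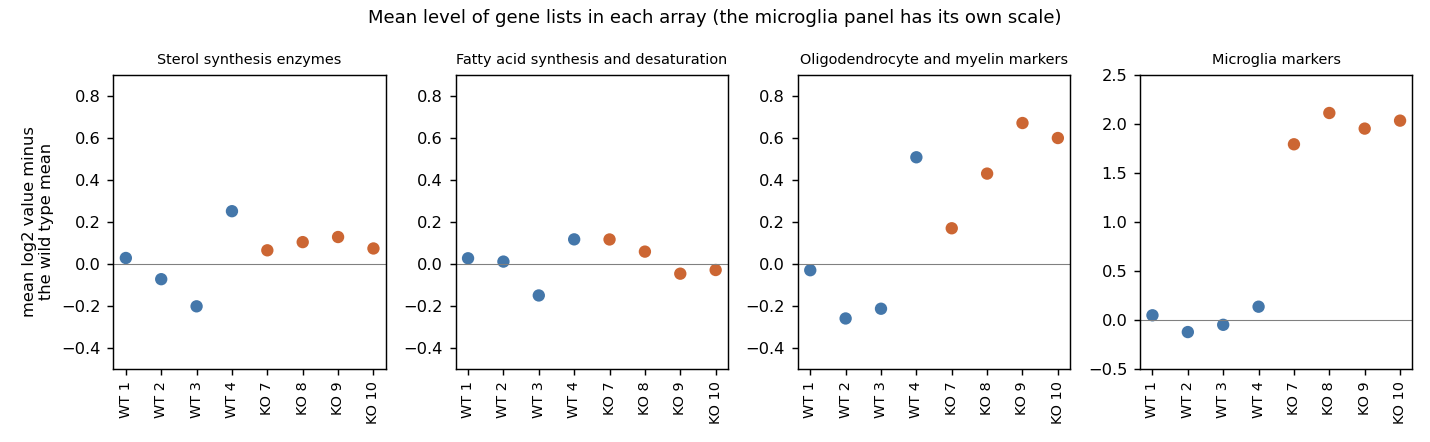
Mean log2 level of 4 gene lists in each array (x axis; WT wild type, KO Nestin-Pex5-/-) minus the mean of the wild type arrays (y axis); the microglia panel has a wider scale. Wild type replicate 4 is the highest wild type array in each panel, and only the microglia panel shows a gap between genotypes.

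For the 7 genes of the SREBP system, sterol transfer and sterol removal all fitted differences were below 0, where 38.3% of all genes were above 0. Scap, Insig2 and Stard4 turned above 0 when the arrays were scaled to reference genes, and none of the 7 passed the threshold. Their median difference was -0.079, and the intervals ran from 0.794-fold to 1.14-fold. Srebf2, the factor that mainly drives sterol genes, is given in full because its genotypes did not overlap. It was 9.84, 9.87, 9.84 and 9.88 in wild type and 9.73, 9.64, 9.71 and 9.67 in Nestin-Pex5-/- arrays. Every Nestin-Pex5-/- array was lower, by a small step beside very close replicates (means 9.86 ± 0.025 and 9.69 ± 0.040, SD, n = 4). The 0.888-fold level (interval 0.821 to 0.960) had an adjusted p of 0.101 by limma, and the other probe set, of a similar level, gave -0.08. Srebf1, the factor that mainly drives fatty acid genes, differed by -0.08.

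Scap, Insig1 and Insig2 differed by -0.01, -0.08 and -0.01. Insig1 is itself a target of SREBP in many cells. Its levels of 9.73, 9.54, 9.41 and 9.98 in wild type and 9.58, 9.50, 9.67 and 9.60 in Nestin-Pex5-/- arrays followed the order of the sterol enzymes in wild type, with replicate 4 highest and replicate 3 lowest. The same highest and lowest array were found for 3 of the 7 genes of this list and for 17% of all genes. Stard4, which moves sterol between membranes, differed by -0.02. Cyp46a1, the neuronal hydroxylase through which the brain exports cholesterol, differed by -0.12 (interval 0.811-fold to 1.04-fold). Without wild type replicate 4 the median of the 7 was 0.0015, and Scap, Insig1, Insig2 and Stard4 were above 0 (0.00, 0.03, 0.02 and 0.06).

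The scaling of the arrays bears on the small differences. Actb was at 13.84 to 13.88 in wild type and at 13.90 to 14.06 in Nestin-Pex5-/- arrays, a difference of 0.13 (adjusted p = 0.272 by limma). Scaling to Actb moved the median difference of all genes from -0.033 to -0.16. On that scale Acaca (-0.33, adjusted p = 0.043) and Srebf2 (-0.30, adjusted p = 0.029) passed as lower beside Fasn (-0.50), and the share of calls that were higher fell, with 540 genes higher and 1086 lower. Scaled to the mean of 8 reference genes, Fads2 (0.32) and Me1 (0.36) passed as higher and Fasn (-0.32) stayed lower, with 928 genes higher and 78 lower.

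Genes around the pathway, from lists that hold no member, included larger changes than any member. Among genes for sterol uptake, esterification, transport and oxidation (15 of 16 measured), 3 were higher and 0 lower, with a median difference of 0.07. Ch25h, which makes an oxysterol that blocks SREBP processing and is induced in activated macrophages, was 5.56, 5.47, 5.84 and 5.65 in wild type and 8.22, 8.82, 8.24 and 8.34 in Nestin-Pex5-/- arrays. It rose 6.84-fold (difference 2.77, standard error 0.14, adjusted p = 2.2e-06 by limma). Npc2, which hands cholesterol over inside lysosomes, rose 1.69-fold (11.06 to 11.36, then 11.87 to 11.95). Cyp7b1, which hydroxylates oxysterols further, rose 1.47-fold (8.84 to 9.12, then 9.35 to 9.75). Mean levels of the microglia, astrocyte and oligodendrocyte precursor markers were also higher in every Nestin-Pex5-/- array than in any wild type array. The summed level of the neuron markers was lower in every Nestin-Pex5-/- array. The part of these cell types in the 3 genes was not tested.

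Among other genes of SREBP processing and sterol sensing (12 of 14 measured), 1 was higher and 1 lower. Nfya, a subunit of the factor that binds CCAAT boxes, was 7.74, 7.77, 7.86 and 7.94 in wild type and 8.12, 8.34, 8.42 and 8.34 in Nestin-Pex5-/- arrays, and rose 1.39-fold (adjusted p = 0.0065 by limma). The call was lost when its 3 probe sets were averaged (difference 0.30, adjusted p = 0.075). Rnf145, a sterol-responsive ubiquitin ligase of the endoplasmic reticulum, was 11.08, 11.24, 11.03 and 11.20, then 10.73, 10.74, 10.66 and 10.61, and fell to 0.732-fold (adjusted p = 0.0032 by limma). Among other fatty acid synthesis genes (19 of 21 measured), 1 was higher. This was Mlxipl, which encodes the glucose-responsive activator of lipogenic genes, at 6.23, 6.11, 6.24 and 6.45, then 6.87, 6.92, 7.07 and 7.23 (1.70-fold, adjusted p = 0.0013 by limma). Of other sterol pathway genes (9 of 12 measured) 0 passed by limma, and the pair with the highest level, Pgrmc1 and Nus1, differed by -0.22 and -0.08. Without wild type replicate 4, Ch25h, Npc2, Cyp7b1, Nfya, Mlxipl and Rnf145 all passed in the same direction. In that fit Cyp27a1 (difference 0.41, adjusted p = 0.033) also passed as higher among the uptake and oxidation genes, and Cyb5r3 (0.25, 0.023) among the other sterol pathway genes. Of the other fatty acid synthesis genes 2 were then higher, Pgd (0.24, 0.047) beside Mlxipl, and 1 was lower, Me3 (-0.41, 0.0052).

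**Figure D5:**
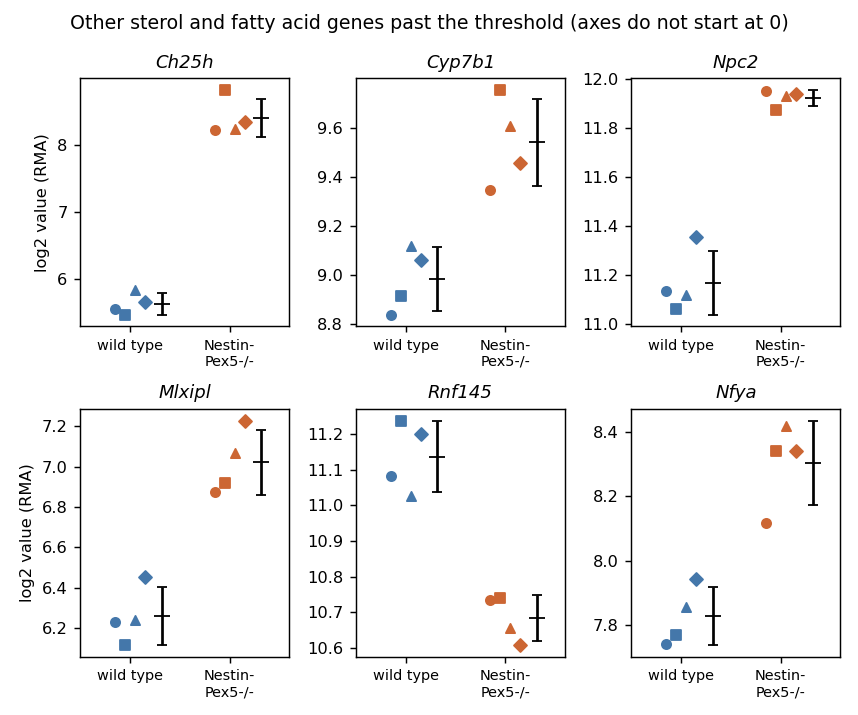
Log2 level (y axis, a separate range per gene) of the 6 genes around the pathway that passed the threshold, 1 point per array, with mean and SD of each genotype as a bar to the right; circle, square, triangle and diamond are replicates 1 to 4 in wild type and 7 to 10 in Nestin-Pex5-/-. In each gene the genotypes do not overlap, with Rnf145 lower and the other 5 higher in Nestin-Pex5-/- arrays.

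Over the probe sets of the members, 22 members had more than 1. Of the 40 probe sets not used above, 31 gave a difference of the same sign as the one used. When all 45101 probe sets were tested, 1048 were higher and 121 lower, and of the 72 probe sets of members 0 passed by limma. At an unadjusted p under 0.05 there were 12, beside 13.2% of all probe sets.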

How the data were processed

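Hypothalamus RNA of 8 mice (4 per genotype) was measured on whole-genome Affymetrix mouse arrays. The authors deposited log2 values made with RMA, per the labels, the version of which is not given in the sources used here; all 8 columns were used. Signal over background is unknown, and the number of arrays limits the precision. Mice were grouped by the labelled genotype.

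Of 45101 probe sets, 34958 are annotated to 1 gene, 932 to several and 9211 to none; only the first were used, with 34754 symbols taken from RefSeq. The brightest probe set on average stood for its gene (18194 genes; no filter on level). The test was limma's (version 3.58.1, R 4.3.3; lmFit on genotype alone, eBayes, two-sided; Benjamini-Hochberg, threshold 0.05), checked on simulated data. Exact permutation tests ran over 70 assignments. Figures used matplotlib 3.10.9.

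The members and lists were chosen with earlier results of these data known, and the lists support nothing on their own. Full statistics are given for the members past the threshold and, up to 8, for those with the largest absolute difference; Srebf2, Sqle and Insig1 were added after their values were seen. From the other pathway lists up to 4 genes past the threshold were named, or the 2 with the highest level. Alternatives were a filter at the median level, the mean of a gene's probe sets, no _s_at or _x_at probe sets, adjustment over all probe sets, scaling to Actb or to 8 of 10 reference genes, a further quantile normalization, trend and robust settings, array weights, and each array left out. Promoter sequences are RefSeq's (GRCm38.p6); matches were sought in the 250 bases before each start.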

Additional observations from a re-analysis of the deposited data

Results flagged for a closer look

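In 6 of the 64 sets of 4 arrays (32 members in each genotype), 1 array lay far from the other 3 by Dixon's 95% limit on the gap to the nearest array as a share of the whole range. Chance alone gives this in about 1 set in 20. In wild type, replicate 4 was far above the rest for Tm7sf2, a sterol reductase (8.86 against 8.48 to 8.54, gap share 0.851), and for Stard4, a sterol carrier (9.42 against 9.07 to 9.11, 0.884). Wild type replicate 2 was far below for Acly, the citrate lyase (11.27 against 11.39 to 11.40, 0.895). In Nestin-Pex5-/- mice, replicate 9 was far above for Mvd (7.90 against 7.78 to 7.79, 0.930) and for Cyp51 (9.79 against 9.76 to 9.76, 0.879), and replicate 7 for Scd2 (13.65 against 13.59 to 13.59, 0.932). In these 3 the other arrays lay very close together, and the gaps were 0.11, 0.03 and 0.05 on the log2 scale.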

How the results depend on the processing

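The call of Fasn as lower was kept under 11 of 17 alternatives, and its difference ran from -0.50 to -0.32. Of 543 pairs of a member and an alternative, 468 kept direction and side of the threshold, 22 newly passed, 6 no longer passed (all of Fasn) and 47 changed sign, in 16 members that never passed and with at most 0.14 after the change. The cause of these changes was not tested. The higher calls of Ch25h, Npc2, Cyp7b1 and Mlxipl and the lower call of Rnf145 were kept under every alternative in which the gene was tested. Ch25h and Mlxipl, with mean levels of 7.02 and 6.64, lay below the median level of 7.75. The filter at that level therefore left them out, and they were tested in 16 alternatives. The number of arrays limits what can be seen, and differences of the size found in most members lay within the spread of 4 arrays. No paired analysis was possible because the genotypes share no replicate number.

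With 1 array left out, the members higher ran from 0 to 6 (6 without wild type replicate 4), the members lower from 0 to 1, all genes higher from 543 to 1080 and all genes lower from 46 to 331. The median difference ran from -0.080 to 0.091 for the steps to squalene, from 0.041 to 0.18 from squalene to cholesterol, from -0.092 to 0.0015 for the SREBP list and from -0.0031 to 0.066 for fatty acid synthesis. Leaving out genes below the median level, which removes Mvd, gave 2 members lower (Fasn and Srebf2) and 416 genes higher. The mean of a gene's probe sets gave 1 member higher (Me1). Adjustment over all probe sets gave 0 members and 72 genes lower. Scaling to Actb gave 3 members and 1086 genes lower, with medians of -0.21 for the SREBP list and -0.11 for fatty acid synthesis. Scaling to the reference genes gave 2 members higher and 78 genes lower. Trend and robust settings gave 2 members higher (Fads2 and Me1). Array weights, with a weight of 0.27 for wild type replicate 4, gave 6 members higher, 3 lower, 1351 genes higher and 699 lower. The members higher were Hmgcs1, Cyp51, Msmo1, Ebp, Fads2 and Me1, and those lower were Srebf2, Acaca and Fasn. Over the 72 probe sets of members, the settings gave 0 to 9 higher and 0 to 2 lower.

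Changes of sign came to -0.045 for Fdps, 0.015 for Insig2 and -0.016 for Scd1 with the mean of probe sets, and to 0.010 for Nus1 without _s_at and _x_at probe sets. Scaled to Actb they came to -0.026 for Pmvk, -0.11 for Fdps, -0.060 for Sqle, -0.018 for Lss, -0.11 for Tm7sf2, -0.058 for Sc5d, -0.021 for Dhcr7, -0.11 for Acly, -0.12 for Scd1 and -0.11 for Scd2, beside a median of -0.16 for all genes. Scaled to the reference genes they came to 0.021 for Mvk, 0.0063 for Nsdhl, 0.035 for Scap, 0.039 for Insig2 and 0.024 for Stard4. A further quantile normalization gave -0.0077 for Tm7sf2 and -0.0019 for Scd1, and array weights gave 0.029 for Mvk, 0.030 for Nsdhl, 0.0011 for Insig1 and -0.063 for Scd1. With 1 array left out the range was -0.012 to 0.039 for Acly, -0.080 to 0.091 for Fdps, -0.16 to 0.028 for Insig1, -0.039 to 0.029 for Insig2, -0.081 to 0.061 for Mvk, -0.097 to 0.047 for Nsdhl, -0.048 to 0.015 for Scap, -0.14 to 0.095 for Scd1, -0.041 to 0.15 for Sqle, -0.073 to 0.060 for Stard4 and -0.026 to 0.099 for Tm7sf2.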
